A study of Homo sapiens with 24 samples.

Results

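Kruppel-like factors (KLFs) were followed in 2 human lung adenocarcinoma cell lines treated with Pirfenidone, an approved anti-fibrotic drug. The members were 10 genes, KLF2, KLF3, KLF4, KLF5, KLF6, KLF7, KLF9, KLF10, KLF11 and KLF13, out of 25992 gene names on the array, and every probe carrying one of these names was taken. They had 14 probes, of which 11, at least 1 for each gene, were bright enough to be tested. A549 and H1975 cells received Pirfenidone, at 0.75 mg/ml by the sample labels, or an equal volume of PBS for 6 h or 24 h. This gave 8 groups (A549 PBS 6h, A549 Pirfenidone 6h, A549 PBS 24h, A549 Pirfenidone 24h and the same for H1975) of 3 one-colour arrays each, 24 in all. The transcriptome part of the study asked which genes, among them those of the TGFβ pathway, respond to the drug in such lines. Each line stands for itself only. The labels give 1 dose, whereas a figure legend of the study names a higher dose for its A549 transcriptome data. The labels do not say whether the 3 arrays of a group came from separate cultures. The study's methods speak of independent experiments for its data in general and not for these arrays, so p-values measure the spread between these arrays, which may be technical.

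KLFs are transcription factors that bind GC-rich boxes and CACCC elements through zinc fingers shared with the SP factors. KLF2, KLF4, KLF5, KLF6 and KLF7 are mostly described as activators or as factors that can both activate and repress. KLF3 represses through the corepressor CtBP, and KLF9, KLF10, KLF11 and KLF13 recruit the SIN3A corepressor. In epithelial tissue KLF4 is linked to differentiation and cell cycle exit and KLF5 to proliferation, and KLF10 and KLF11 were named as early genes of the TGFβ response.

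Values are log2 of the array signal minus the 75th percentile of the same array, so that 0 is the level of that percentile, 1 unit is a doubling and levels of different probes cannot be compared. Differences are Pirfenidone minus PBS unless another direction is given. A probe was said to have changed where the Benjamini-Hochberg adjusted p over all 23827 tested probes was at or under 0.05, and the count that also differed by 2-fold or more is given beside it. The 2-fold limit is that of the study, whose Westfall-Young correction was not used here. Between 62.7% and 69.5% of the probes of an array were well above background and no probe was saturated. The epithelial genes EPCAM, CDH1, KRT7, KRT8, KRT18 and KRT19 were well above background on all 24 arrays. AKR1B10, high in A549 cells as a rule, lay between 6.88 and 7.28 in A549 and between -3.39 and -1.35 in H1975. CDKN2A, deleted in A549 by textbook knowledge, was also lower there (-2.33 to -0.88 against 2.37 to 3.07 in H1975) but well above background on 12 of 12 A549 arrays. Of the fibroblast markers COL1A1 was above background in both lines, COL1A2 (0.16 to 2.5) and PDGFRB (-5.58 to -3.05) in H1975 only, and COL3A1 in neither. Of the leukocyte and endothelial markers reported here PECAM1 (-5.87 to -3.85) and VWF (-6.78 to -6.04) were above background in H1975 only, PTPRC and CDH5 were dim in both lines and CD3E was above background on 1 of 24 arrays. Their part in the results was not tested.

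Arrays were grouped by run, the date in the name of each array, whose meaning the sources used here do not give. Every Pirfenidone array shared a run with 1 PBS array of its line and time, which gives 3 within-run differences per comparison. The A549 24 h pair of run 1 (replicate 3 of both groups) stood apart. Across the 23827 tested probes its Pirfenidone minus PBS difference correlated with r = -0.38 and r = -0.55 with those of the other 2 pairs, which correlated with r = 0.39 between themselves. Of the 11 KLF probes, 6 were higher on its PBS array than on any other A549 PBS array and 2 were lower. On its Pirfenidone array 5 were lower than on any other A549 Pirfenidone array and 0 were higher. The A549 24 h results are therefore given with and without this pair. Groups follow the labels, and whether the labels of these 2 arrays had been exchanged was not tested. An exchange would turn the sign of their difference. Treatment and time also set an array's place on its slide within a line, so place and treatment cannot be told apart.

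Promoter sequence is shown for the 4 genes that changed with Pirfenidone in H1975 cells at 24 h, chosen only because they passed the test there. The RefSeq promoter table (build GRCh38.p14) matched 8 of the 10 members in 13 windows, and the 250 bases before each annotated start were searched on both strands for GGGCGG (a GC box) and CACCC, the elements KLFs bind, for TGACGTCA (the cyclic AMP response element) and for TTGCATCA (a composite C/EBP-ATF element). For KLF7 (1 of 4 windows) and KLF11 (1 of 2) the window with the most GGGCGG matches is printed. The other KLF7 windows held 0 GGGCGG matches each, and the other KLF11 window held 2. Capitals mark every match on either strand.
KLF7 (chr2:207166857-207167106, minus strand): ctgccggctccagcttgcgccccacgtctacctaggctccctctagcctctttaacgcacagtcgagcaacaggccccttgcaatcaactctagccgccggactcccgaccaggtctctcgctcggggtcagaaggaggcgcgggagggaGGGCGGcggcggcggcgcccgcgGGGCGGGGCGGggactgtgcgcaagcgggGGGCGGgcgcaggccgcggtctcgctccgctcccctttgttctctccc
KLF4 (chr9:107489770-107490019, minus strand): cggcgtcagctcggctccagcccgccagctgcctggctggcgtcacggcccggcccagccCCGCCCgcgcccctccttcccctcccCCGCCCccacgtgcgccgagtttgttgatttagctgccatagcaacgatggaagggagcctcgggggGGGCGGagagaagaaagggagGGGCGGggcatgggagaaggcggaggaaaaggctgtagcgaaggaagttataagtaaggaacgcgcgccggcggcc
KLF13 (chr15:31326585-31326834, plus strand): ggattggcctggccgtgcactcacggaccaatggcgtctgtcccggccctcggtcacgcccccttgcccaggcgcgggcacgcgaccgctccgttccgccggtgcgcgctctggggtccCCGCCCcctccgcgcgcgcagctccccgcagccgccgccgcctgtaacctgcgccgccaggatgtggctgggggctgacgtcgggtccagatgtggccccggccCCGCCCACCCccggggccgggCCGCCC
KLF11 (chr2:10043971-10044220, plus strand): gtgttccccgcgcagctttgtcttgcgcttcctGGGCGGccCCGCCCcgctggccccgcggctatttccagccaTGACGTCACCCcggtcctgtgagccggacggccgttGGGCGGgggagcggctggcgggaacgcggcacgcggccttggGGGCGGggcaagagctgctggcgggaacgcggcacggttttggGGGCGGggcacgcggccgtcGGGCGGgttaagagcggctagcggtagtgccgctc
KLF7 and KLF4 held 4 GGGCGG matches each in these windows, KLF13 held 3 and KLF11 held 6. Over the members GGGCGG was found in 8 of 13 windows, against 42.6% of all 35116 windows of the same length, and CACCC in 6 of 13, against 54.7%. TGACGTCA was found in 1 member window, that of KLF11, where it began 176 bases before the start and shared its last letters with a CACCC match, and in 1.6% of all windows. TTGCATCA was in 0 of 13 windows and in 0.8% of all. In KLF13 a GGGCGG match and the CACCC match overlapped in the same way. Such matches are letters in a window and not measured binding.

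**Figure D1:**
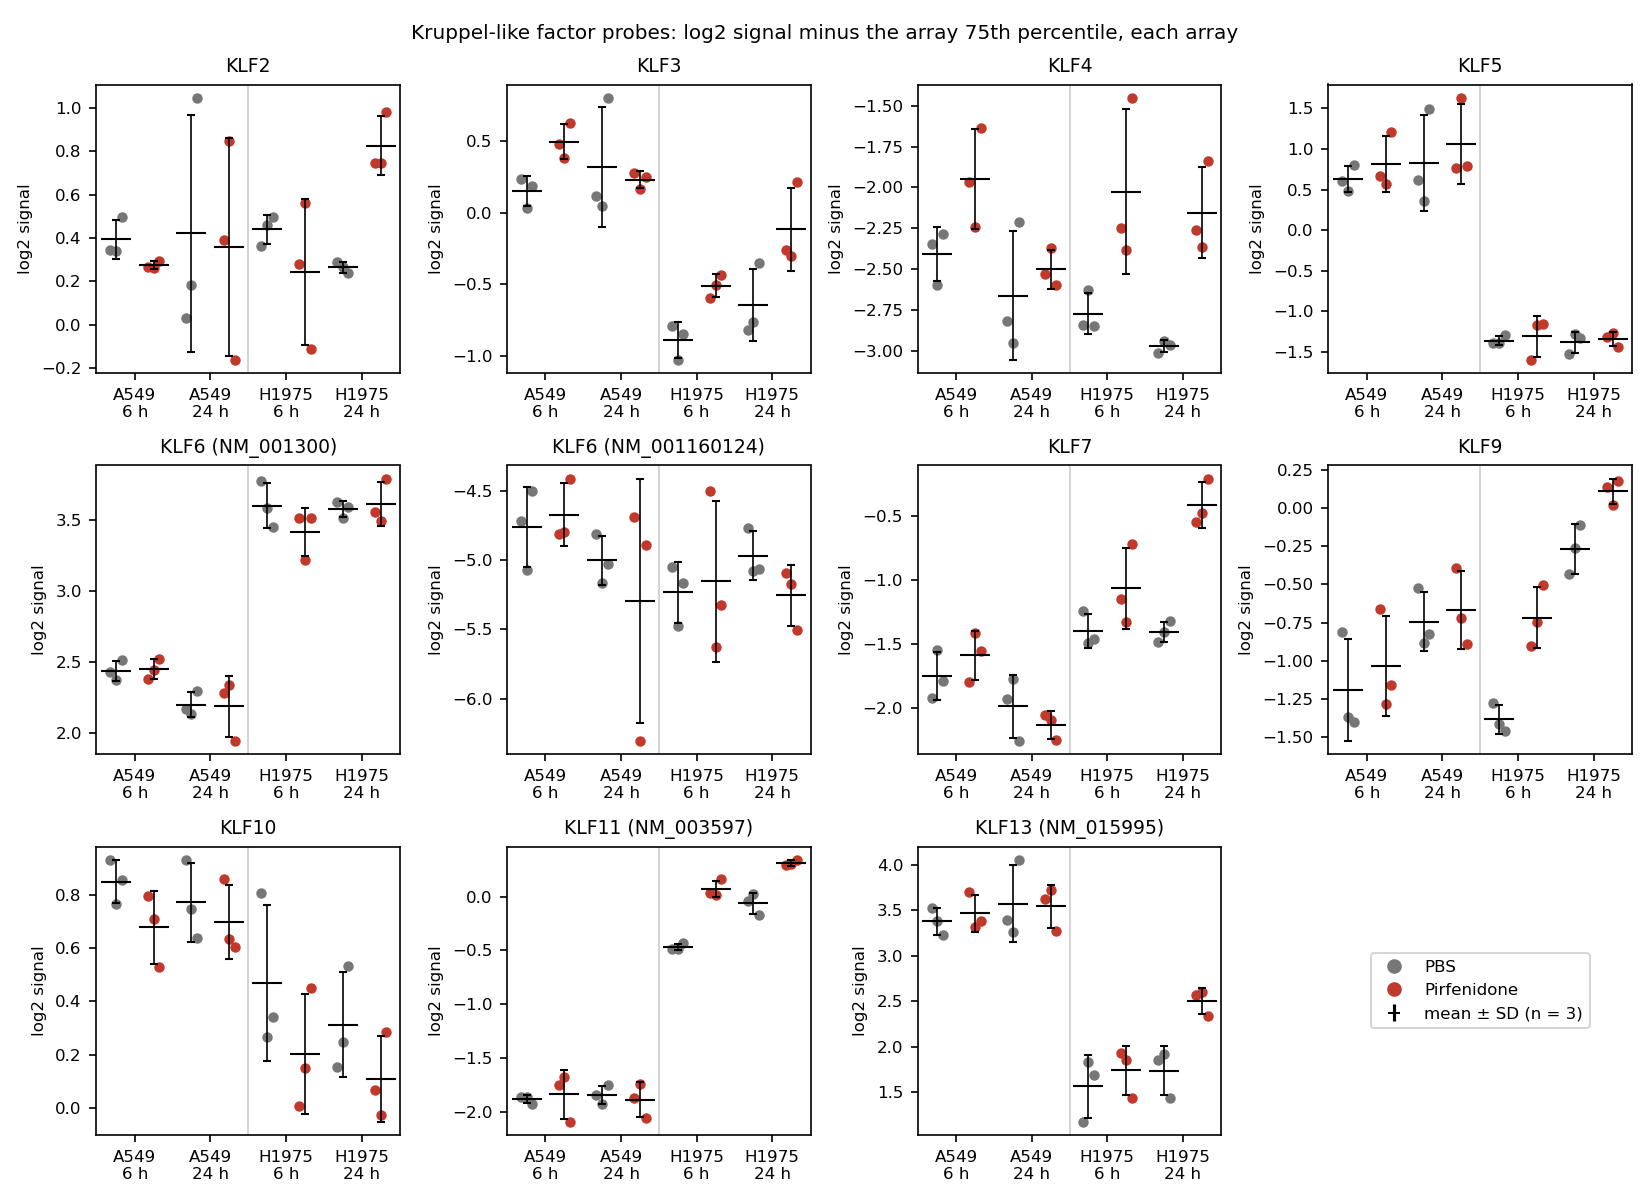
Log2 signal minus the array's 75th percentile (vertical axes, scaled separately) of the 11 tested KLF probes on each of the 24 arrays, by cell line and time; grey points are PBS, red points Pirfenidone, black bars mean ± SD over 3 arrays. KLF5 and KLF13 lie lower in H1975 than in A549, KLF11 and the NM_001300 probe of KLF6 lie higher, and the red points of KLF7 in H1975 at 24 h lie above all others of that probe.

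In H1975 cells at 24 h Pirfenidone raised KLF7, KLF4, KLF13 and KLF11, by 0.99, 0.82, 0.76 and 0.38 on the log2 scale, and no KLF fell by the test. These were 4 of 11 probes, against 6.26% of all tested probes, and 0 of 11 reached 2-fold, against 1.89%. The fit behind these counts had no term for run. With run as a block KLF3 and KLF9 passed as well, and the share of all probes in that fit is not given here. The median of the 11 probes was 0.38 (range -0.29 to 0.99) against a median of 0.02 over all probes. Of the 11, 9 were positive, against 52.9% of all probes, and 6 had an unadjusted p under 0.05. The 3 Pirfenidone arrays did not overlap the 3 PBS arrays for 8 of the 11 probes, against 31.9% of all probes. With Pirfenidone 7 of the 11 were higher in each of the 3 runs and 2 were lower, KLF10 and the NM_001160124 probe of KLF6. That KLF6 probe was among those without overlap, with all its Pirfenidone arrays lower. Here and below, shares over all probes were not counted for an unadjusted p under 0.05 or for the sign within runs. In such bulk RNA, more cells with a transcript and more of it per cell cannot be told apart, and the same holds for a fall. Changes of H1975 cells are described first for the activators and then for the factors that recruit SIN3A.

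KLF7, a broadly expressed factor studied in neurite outgrowth and fat cells, had the largest change of the members (probe at chr2:207945568-207945627 of hg19, minus strand). In H1975 cells at 24 h it read -1.48, -1.41 and -1.32 with PBS and -0.55, -0.48 and -0.21 with Pirfenidone. The groups were far apart and the PBS arrays at 24 h lay where those at 6 h did (-1.49 to -1.24). The difference was 0.99 ± 0.16 (SE, 95% interval 0.66 to 1.33, adjusted p = 0.0026), just short of 2-fold, and 1.11, 0.93 and 0.93 within runs 1, 3 and 4. Leaving out each array in turn kept it between 0.89 and 1.06 with adjusted p from 0.0051 to 0.022. At 6 h the H1975 Pirfenidone arrays read -1.15, -1.33 and -0.72 and overlapped the PBS arrays, with a difference of 0.33 (95% interval -0.005 to 0.67, adjusted p = 0.46).

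In A549 cells KLF7 moved by 0.16 (95% interval -0.17 to 0.50) at 6 h and by -0.15 (95% interval -0.48 to 0.19) at 24 h, which was -0.22 (adjusted p = 0.84) without the pair of run 1. At 24 h it read -1.93, -1.77 and -2.26 with PBS and -2.05, -2.09 and -2.25 with Pirfenidone, so the groups overlapped. The change at 24 h differed between the lines by 1.14 ± 0.23 (SE, 95% interval 0.66 to 1.62, adjusted p = 0.046), and KLF7 was the only member of 11 probes past 2-fold and the threshold in that test, against 0.193% of all probes. This call was lost in 9 of 12 fits that left out 1 array (1.03 to 1.27, adjusted p 0.025 to 0.13), and without both A549 24 h arrays of run 1 the difference was 1.21 with adjusted p = 0.084. With run as a block it was 1.14 with adjusted p = 0.0028, and 1.21 with 0.0045 without that pair. For the 6 h changes 0 of 11 probes differed between the lines, against 0.0336% of all, and 1 had an unadjusted p under 0.05. From lowest to highest the KLF7 group means were A549 Pirfenidone 24h at -2.13 ± 0.11 (SD), A549 PBS 24h at -1.98 ± 0.25, A549 PBS 6h at -1.75 ± 0.19, A549 Pirfenidone 6h at -1.59 ± 0.19, H1975 PBS 24h at -1.40 ± 0.08, H1975 PBS 6h at -1.40 ± 0.14, H1975 Pirfenidone 6h at -1.06 ± 0.32 and H1975 Pirfenidone 24h at -0.41 ± 0.18. Neighbours in this order overlapped, except that all 3 arrays of H1975 Pirfenidone 24h lay above every other array.

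KLF4, which acts in differentiation of epithelia and in reprogramming (probe at chr9:110248049-110248108 of hg19, minus strand), was low and tight in H1975 PBS arrays at 24 h. They read -3.01, -2.94 and -2.97, against -2.26, -2.36 and -1.84 with Pirfenidone, so all 3 treated arrays were higher. The difference was 0.82 ± 0.22 (SE, adjusted p = 0.037), and 1.13, 0.75 and 0.57 within runs 1, 3 and 4. It stayed at 0.66 to 0.92 when 1 array was left out, but the call was lost in 5 of 6 such fits (adjusted p 0.046 to 0.20), the furthest without the Pirfenidone array of run 1. At 6 h the arrays were apart again, with PBS at -2.84, -2.63 and -2.85 and Pirfenidone at -2.25, -2.38 and -1.45. That difference was 0.75 ± 0.22 (95% interval 0.28 to 1.22, adjusted p = 0.13), and 0.030 with run as a block, and the within-run difference was 1.39 in run 1 against 0.38 and 0.47 in runs 3 and 4. In A549 cells at 6 h KLF4 read -2.35, -2.60 and -2.28 with PBS and -1.96, -2.25 and -1.64 with Pirfenidone. These groups were apart by a small margin, with a difference of 0.46 (95% interval -0.01 to 0.93, adjusted p = 0.85), and at 24 h the difference was 0.16 (95% interval -0.31 to 0.63), or 0.435 (adjusted p = 0.72) without the pair of run 1.

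KLF13, first described as an activator of the chemokine gene CCL5 in T cells (tested probe at chr15:31669908-31669967 of hg19, plus strand), changed in H1975 cells at 24 h. At 24 h the PBS arrays read 1.86, 1.92 and 1.44 and the Pirfenidone arrays 2.57, 2.61 and 2.34, with no overlap. The difference was 0.76 ± 0.21 (SE, adjusted p = 0.041), and 0.90, 0.71 and 0.68 within runs 1, 3 and 4. In run 1 both arrays lay below those of the other runs. The call was lost in each of 6 fits without 1 array (0.61 to 0.86, adjusted p 0.061 to 0.15), and with run as a block the adjusted p was 0.0094. At 6 h the difference was 0.17 (95% interval -0.28 to 0.62), and the change from 6 h to 24 h of 0.59 (95% interval -0.05 to 1.23) had an adjusted p of 0.91. In A549 cells the differences were 0.09 (95% interval -0.36 to 0.54) at 6 h and -0.03 (95% interval -0.48 to 0.42) at 24 h, the latter 0.34 (adjusted p = 0.76) without the pair of run 1.

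KLF11, a SIN3A-dependent repressor also known as a TGFβ-inducible early gene (tested probe at chr2:10194646-10194705 of hg19, plus strand), was the 1 member that changed in H1975 cells at both times. With run as a block KLF4 (adjusted p = 0.030 at 6 h and 0.00995 at 24 h) and KLF9 (4.6e-04 and 0.0088) passed at both times as well. At 6 h the PBS arrays read -0.49, -0.48 and -0.43 and the Pirfenidone arrays 0.03, 0.02 and 0.16. The gap was wide against the spread, and the difference was 0.54 ± 0.11 (SE, adjusted p = 0.015), with 0.65, 0.52 and 0.45 within runs 1, 3 and 4. The call was lost in 3 of 6 fits without 1 array (0.49 to 0.56, adjusted p 0.036 to 0.070). At 24 h PBS arrays read -0.04, 0.02 and -0.17 and Pirfenidone arrays 0.29, 0.31 and 0.34, again without overlap. That difference was 0.38 ± 0.11 (SE, adjusted p = 0.044), lost in each of 6 fits without 1 array (0.32 to 0.42, adjusted p 0.068 to 0.17) and at 0.015 with run as a block. The H1975 order was PBS 6h at -0.47 ± 0.03 (SD), PBS 24h at -0.06 ± 0.10, Pirfenidone 6h at 0.07 ± 0.08 and Pirfenidone 24h at 0.31 ± 0.03, in which PBS 24h and Pirfenidone 6h overlapped. In A549 cells all 4 KLF11 group means lay between -1.89 and -1.84, with differences of 0.04 (95% interval -0.18 to 0.27) at 6 h and -0.05 (95% interval -0.27 to 0.18) at 24 h. Without the pair of run 1 the 24 h difference was 0.08 (adjusted p = 0.95).

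The genes whose signal followed these 4 members most closely over the 24 arrays, after the mean of each line was subtracted, were looked up among 18836 probes well above background on all arrays. For KLF7 they were JHDM1D-AS1 (Pearson r = 0.85), WARS (0.82) and UPP1 (0.82). For KLF4 they were TIRAP (0.91), the transcript ENST00000433309 (0.90) and SESN2 (0.89). For KLF13 they were ACE (0.96), TRAK1 (0.95) and MANBA (0.94), and for KLF11 ANKRD37 (0.88), FBXL20 (0.87) and AK130724 (0.86). The arrays share runs and treatments, so these values are descriptions only.

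**Figure D2:**
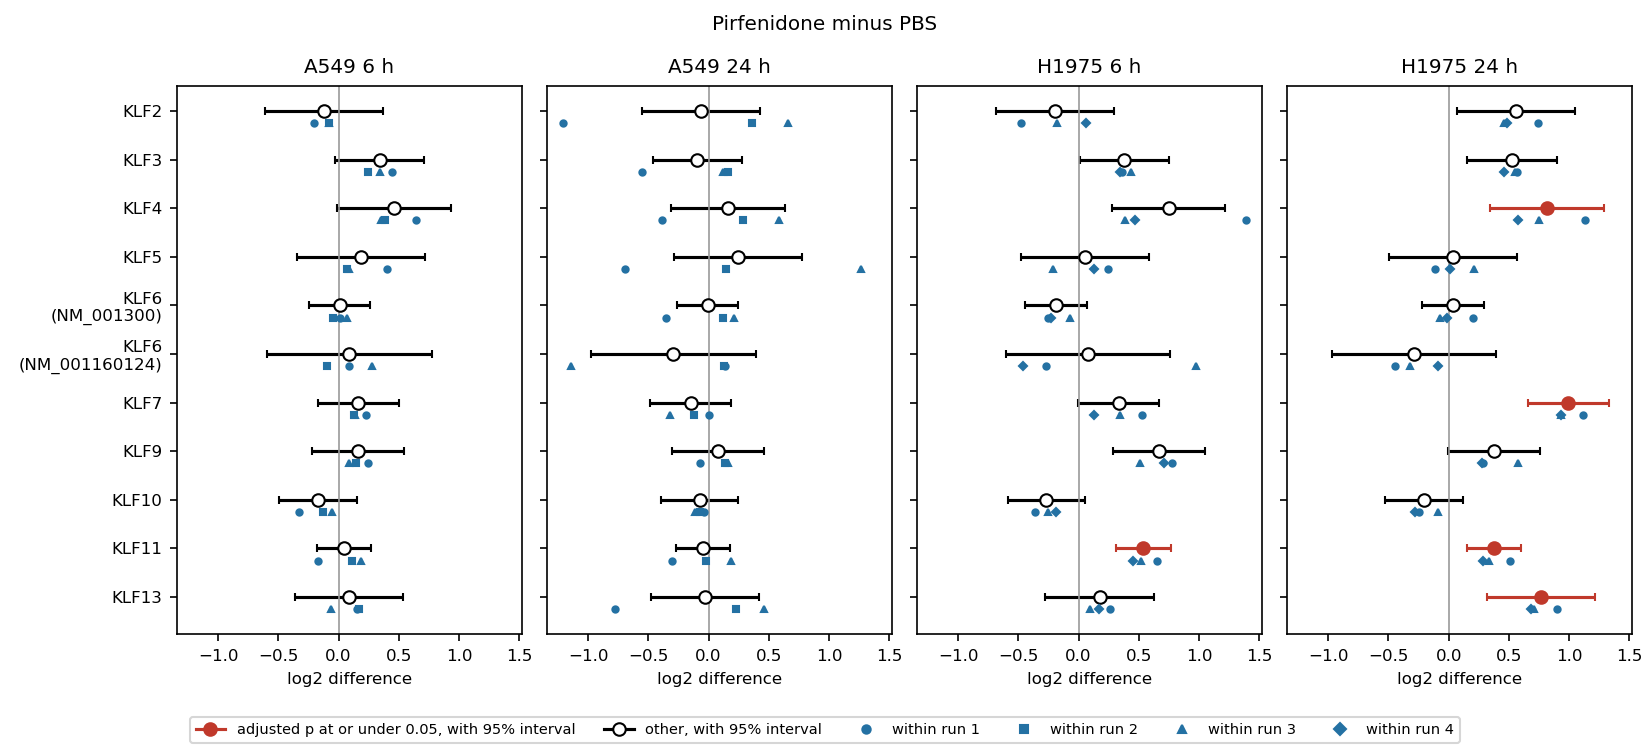
Pirfenidone minus PBS on the log2 scale (horizontal axes) for the 11 tested KLF probes in the 4 comparisons; large points with bars are fitted differences with 95% intervals, red where the adjusted p was at or under 0.05, and small blue marks are differences within each run. KLF7, KLF4, KLF13 and KLF11 are red in H1975 at 24 h, KLF11 in H1975 at 6 h and none in A549, where the run 1 marks at 24 h lie left of 0 for most probes.

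At 6 h in H1975 cells KLF11 was the 1 of 11 probes that passed, against 1.41% of all probes, and 0 reached 2-fold, against 0.491%. With run as a block KLF4 and KLF9, both higher, and KLF10, lower, passed at 6 h as well. The share of all probes in that fit is not given here. The median of the 11 probes was 0.17 (range -0.27 to 0.75) against 0.05 over all probes. Of the 11, 8 were positive, against 59% of all probes, and 4 had an unadjusted p under 0.05. KLF3, KLF4, KLF9 and KLF11 had groups without overlap, 4 of 11 against 17.8% of all probes.

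KLF9, a known target of glucocorticoid and thyroid hormone receptors (probe at chr9:72999837-72999896 of hg19, minus strand), had the second largest H1975 difference at 6 h. PBS arrays read -1.28, -1.41 and -1.46 and Pirfenidone arrays -0.90, -0.75 and -0.50. All treated arrays were higher, with a difference of 0.67 ± 0.18 (SE, 95% interval 0.28 to 1.05, adjusted p = 0.087). Within runs 1, 3 and 4 it was 0.78, 0.51 and 0.71, and with run as a block the adjusted p was 4.6e-04. At 24 h PBS arrays read -0.43, -0.26 and -0.11 and Pirfenidone arrays 0.14, 0.02 and 0.17, with a difference of 0.38 (95% interval -0.004 to 0.76, adjusted p = 0.23, and 0.0088 with run as a block). In A549 cells the differences were 0.16 (95% interval -0.22 to 0.54) and 0.08 (95% interval -0.31 to 0.46), the latter 0.15 (adjusted p = 0.95) without the pair of run 1.

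KLF9 was also the 1 member that changed with time in culture. Between the PBS arrays of H1975 cells it rose from 6 h to 24 h by 1.12 ± 0.18 (SE, adjusted p = 0.0056), with no overlap and with 1.17, 0.98 and 1.20 within runs 1, 3 and 4. This was 1 of 11 probes, against 0.663% of all probes and 0.315% with 2-fold, and the call held in 6 of 6 fits without 1 array (1.04 to 1.20, adjusted p 0.016 to 0.042). In A549 PBS arrays KLF9 read -0.81, -1.37 and -1.40 at 6 h and -0.53, -0.88 and -0.82 at 24 h. Those groups overlapped, but the array of each run was higher at 24 h, by 0.58, 0.28 and 0.48 in runs 1, 2 and 3. The difference was 0.45 (95% interval 0.07 to 0.83, adjusted p = 0.52, and 0.020 with run as a block), and 0 of 11 probes changed with time in A549, against 0.134% of all and 0.109% with 2-fold. KLF11 in H1975 PBS arrays went from -0.47 to -0.06, a difference of 0.41 (95% interval 0.18 to 0.63, adjusted p = 0.098, and 0.020 with run as a block).

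**Figure D3:**
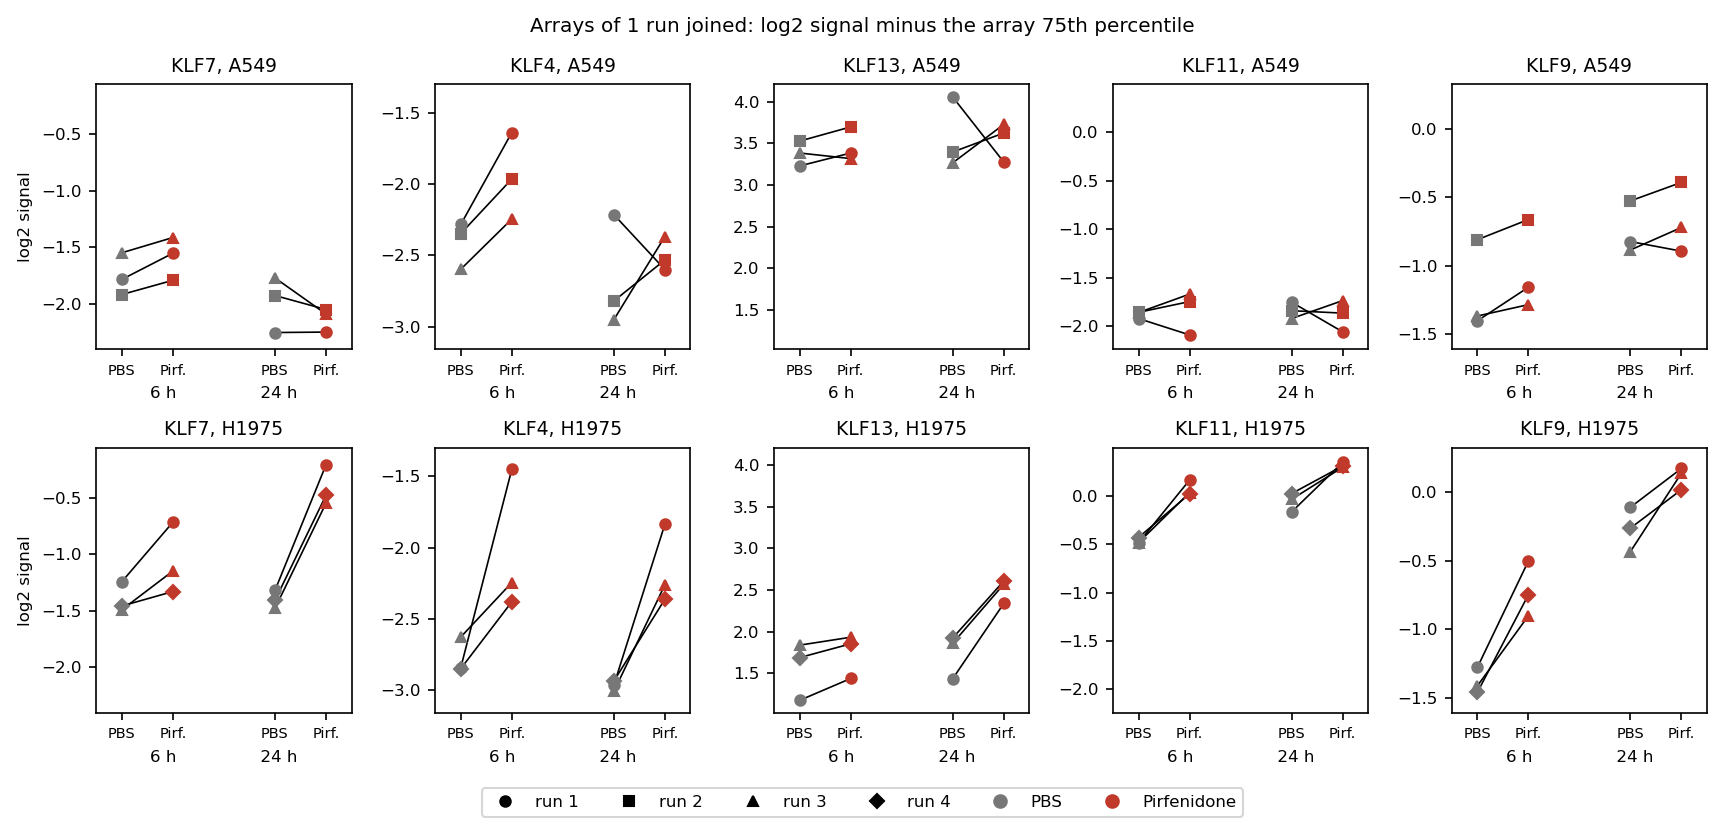
Log2 signal minus the array's 75th percentile (vertical axes, the same range for a gene in both lines) of 5 KLF genes with PBS and Pirfenidone (Pirf.) at 6 h and 24 h; marker shapes are runs and lines join the PBS and Pirfenidone arrays of 1 run. Every H1975 line slopes upward. In A549 at 24 h the run 1 lines of KLF4, KLF13, KLF11 and KLF9 slope downward (-0.39, -0.78, -0.31 and -0.07). So do those of KLF7 in runs 2 and 3 (-0.12 and -0.32) and of KLF11 in run 2 (-0.025).

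KLF3 and KLF2 had smaller differences in H1975 cells. KLF3, the CtBP-dependent repressor (probe at chr4:38702518-38702577 of hg19, plus strand), read -0.82, -0.76 and -0.35 with PBS and -0.26, -0.30 and 0.22 with Pirfenidone at 24 h. All treated arrays were higher, and the difference was 0.53 (95% interval 0.16 to 0.90, adjusted p = 0.082, and 0.012 with run as a block), with within-run differences of 0.57, 0.55 and 0.46. At 6 h it was 0.38 (95% interval 0.01 to 0.75) in H1975 and 0.34 (95% interval -0.03 to 0.71) in A549 cells, where PBS arrays read 0.23, 0.03 and 0.18 and Pirfenidone arrays 0.47, 0.38 and 0.62. KLF2, a factor of endothelial shear stress and T cell quiescence (probe at chr19:16438246-16438305 of hg19, plus strand, printed in 10 spots whose SD on an array was 0.02 to 0.06), read 0.29, 0.26 and 0.24 with PBS and 0.75, 0.75 and 0.98 with Pirfenidone in H1975 cells at 24 h. These groups were apart, with a difference of 0.56 (95% interval 0.07 to 1.05, adjusted p = 0.16). At 6 h KLF2 pointed the other way, at -0.20 (95% interval -0.69 to 0.29), and the change between the times was 0.76 (95% interval 0.07 to 1.45, adjusted p = 0.80). For 0 of 11 probes did the change differ between 6 h and 24 h, in H1975 (0.0042% of all probes, with 2 members at an unadjusted p under 0.05) or in A549 (0.0294%, with 0).

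KLF5, KLF6 and KLF10 showed no change with Pirfenidone that passed the test in either line. KLF10, the other TGFβ-inducible early gene, read lower with Pirfenidone in every run of all 4 comparisons, with differences of -0.17 (95% interval -0.49 to 0.15) and -0.07 (95% interval -0.40 to 0.25) in A549 and -0.27 (95% interval -0.59 to 0.05) and -0.20 (95% interval -0.53 to 0.12) in H1975, at 6 h and 24 h. Without the pair of run 1 the A549 24 h difference of KLF10 was -0.09 (adjusted p = 0.97). With run as a block its H1975 difference at 6 h passed the test (adjusted p = 0.040). KLF5, a promoter of epithelial proliferation, differed by 0.05 (95% interval -0.48 to 0.58) and 0.04 (95% interval -0.49 to 0.57) in H1975 cells. The NM_001300 probe of KLF6, a gene linked to CDKN1A induction and growth arrest, differed by -0.19 (95% interval -0.44 to 0.07) and 0.04 (95% interval -0.22 to 0.29) there. Its NM_001160124 probe, dimmer and with wide intervals, differed by 0.08 (95% interval -0.60 to 0.76) and -0.29 (95% interval -0.97 to 0.40).

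In A549 cells 0 of 11 KLF probes changed with Pirfenidone at 6 h, against 0.34% of all probes and 0.176% with 2-fold, and 0 had an unadjusted p under 0.05. The median was 0.09 (range -0.17 to 0.46) against -0.01 over all probes. KLF2, KLF3 and KLF4 had groups without overlap, 3 of 11 against 15.3% of all probes, and 5 probes were higher and 2 lower in each of the 3 runs. At 24 h 0 of 11 changed, against 0.0126% of all probes by either rule, with 0 at an unadjusted p under 0.05, 0 without overlap (1.82% of all) and a median of -0.05 (range -0.29 to 0.24). Here the runs went against each other. KLF2 read 0.03, 0.18 and 1.05 with PBS and 0.39, 0.85 and -0.16 with Pirfenidone, giving differences of 0.36 and 0.66 in runs 2 and 3 and -1.21 in run 1. KLF13 read 3.39, 3.26 and 4.05 with PBS and 3.62, 3.73 and 3.27 with Pirfenidone, giving 0.23, 0.46 and -0.78 in the same order. KLF5 gave 0.15, 1.27 and -0.69. Without both arrays of run 1, 8 of the 11 probes were positive in place of 3, among them KLF5 at 0.71, KLF2 at 0.51, the NM_001300 probe of KLF6 at 0.16 and KLF3 at 0.14, while the NM_001160124 probe of KLF6 was at -0.51. Of all probes 41% were positive with the pair, and the share without it was not counted. Without the pair none of the 11 KLF probes passed (lowest adjusted p = 0.39, and 0.082 with run as a block).

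PBS-treated levels of several KLFs differed between the lines, about as often as those of all probes. In PBS arrays at 6 h 6 of 11 probes differed, against 58.6% of all probes, and 5 of these by 2-fold or more, against 32.4%. At 24 h 8 differed, against 59.2%, and 4 by 2-fold or more, against 32.9%. KLF11 and the NM_001300 probe of KLF6 were higher in H1975, and KLF13, KLF5 and KLF3 were lower.

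KLF5 (probe at chr13:73650979-73651038 of hg19, plus strand) read 0.60, 0.48 and 0.80 in A549 and -1.40, -1.38 and -1.30 in H1975 with PBS at 6 h. The H1975 minus A549 difference was -1.99 ± 0.25 (SE, adjusted p = 1.6e-06), and -2.20 at 24 h. KLF13 read 3.53, 3.38 and 3.23 in A549 and 1.18, 1.84 and 1.69 in H1975, a difference of -1.81 ± 0.21 (SE, adjusted p = 6.2e-07), and -1.83 at 24 h. KLF11 read -1.86, -1.86 and -1.92 in A549 and -0.49, -0.48 and -0.43 in H1975, a difference of 1.41 ± 0.11 (SE, adjusted p = 1.3e-09), and 1.78 at 24 h. The groups of these genes did not overlap, and the order was the same in runs 1 and 3, which both lines shared. Groups without overlap were common between the lines. They were seen for 7 of 11 KLF probes at 6 h and 8 at 24 h, against 66.3% and 63.7% of all probes. KLF3 was lower in H1975, with differences of -1.04 (adjusted p = 5.0e-05) at 6 h and -0.96 (adjusted p = 1.1e-04) at 24 h. These calls held in each fit without 1 array.

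The KLF6 probes disagreed. The NM_001300 probe (chr10:3821387-3821446 of hg19, minus strand) read 2.43, 2.38 and 2.52 in A549 and 3.77, 3.58 and 3.45 in H1975 at 6 h, higher in H1975 by 1.16 ± 0.12 (SE, adjusted p = 1.2e-07), and by 1.37 at 24 h. The NM_001160124 probe (chr10:3827370-3827429 of hg19, minus strand) differed by -0.47 (95% interval -1.15 to 0.21) and 0.03 (95% interval -0.65 to 0.72). Its letters matched the RefSeq window of KLF6 from 28 bases before the annotated start to base 32 after it, so 28 of its 60 bases lie outside that transcript. Among the untested probes, the KLF6 probe ENST00000469435 was well above background on 7 arrays, the KLF13 probe AK127052 on 1 and the KLF11 probe XM_005246179 on 0.

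Smaller line differences were seen for KLF10, KLF7 and KLF9. KLF10 was lower in H1975, with differences of -0.38 (adjusted p = 0.041) and -0.46 (adjusted p = 0.015), a call lost in 5 of 6 and 2 of 6 fits without 1 array (adjusted p up to 0.18 and 0.068). KLF7 was higher in H1975 at 24 h by 0.58 (adjusted p = 0.0043), against 0.35 (95% interval 0.02 to 0.69, adjusted p = 0.067) at 6 h. KLF9 differed by -0.19 (95% interval -0.57 to 0.19, adjusted p = 0.38) at 6 h and was higher in H1975 at 24 h by 0.48 (adjusted p = 0.031), a call lost in 4 of 6 fits without 1 array (adjusted p up to 0.11) and, at 0.44 with adjusted p = 0.079, without the A549 pair of run 1. KLF2 (0.05 and -0.16) and KLF4 (-0.36 and -0.31) did not pass at either time.

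**Figure D4:**
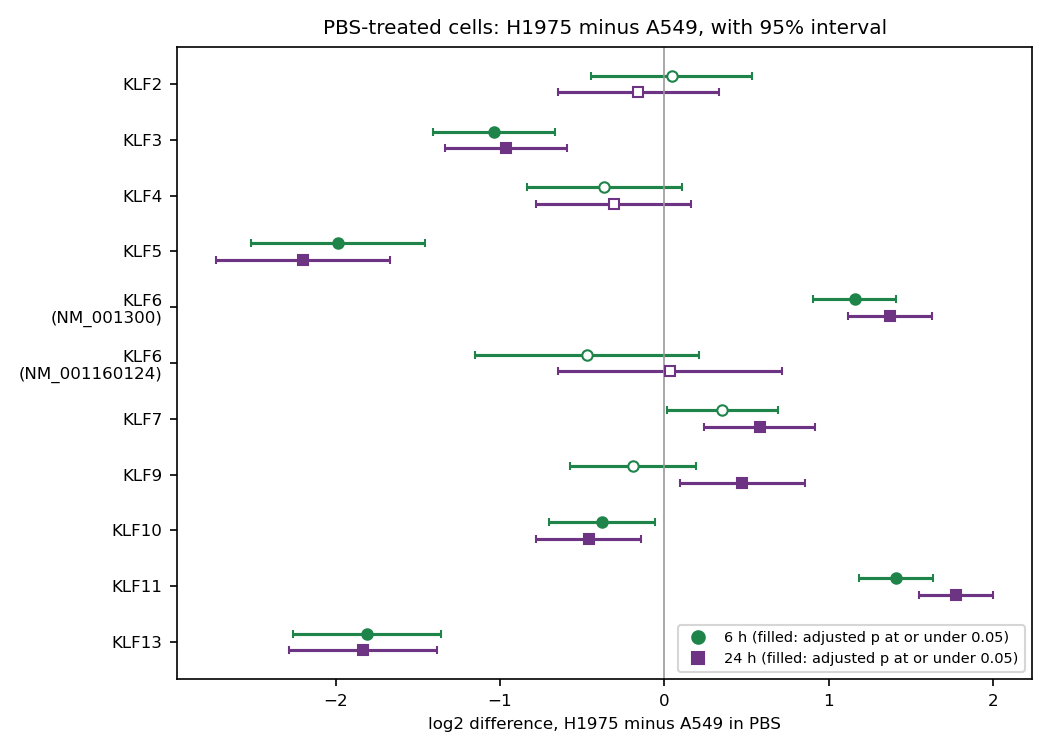
H1975 minus A549 in PBS arrays on the log2 scale (horizontal axis) for the 11 tested KLF probes at 6 h (circles) and 24 h (squares), with 95% intervals; filled symbols have an adjusted p at or under 0.05. KLF5 and KLF13 lie near -2, KLF3 near -1, and KLF11 and the NM_001300 probe of KLF6 between 1.16 and 1.78.

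Genes around the KLFs were counted from lists of textbook members, with no test of a list. The shares of all tested probes that changed with Pirfenidone were 1.41% at 6 h and 6.26% at 24 h in H1975 cells and 0.34% and 0.0126% in A549. Of 17 other KLF and SP genes 14 were tested, and 1 changed with Pirfenidone, SP9, which rose in H1975 cells at 24 h by 0.75 (adjusted p = 0.016). Between the lines 6 of these 14 were higher and 3 lower in H1975 PBS arrays at 6 h, against 58.6% of all probes in both directions, and 7 and 3 at 24 h, against 59.2%. Of 18 regulators and cofactors of KLFs, such as MEF2 factors, CtBP and SIN3 proteins and ubiquitin ligases, 1 changed, the ubiquitin ligase SIAH1, which rose in H1975 cells at 24 h by 0.61 (adjusted p = 0.027). Of 18 genes described as KLF targets 4 changed, all in H1975 cells at 24 h, where 6.26% of all probes did. CDKN1A, the cell cycle inhibitor p21, rose by 0.95 (adjusted p = 0.033), and the mitotic genes CCNB1, CDK1 and BIRC5 fell by 1.18, 0.95 and 1.36 (adjusted p = 0.039, 0.027 and 0.021). CCL5, CDH1 and the other 12 did not pass.

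Of 11 early TGFβ response genes, TGIF1, ID1 and ID2 rose in H1975 cells at 6 h by 0.73, 0.75 and 1.04 (adjusted p = 0.011, 0.018 and 0.0040), against 1.41% of all probes, and at 24 h TGIF1 alone passed, at 0.53 (adjusted p = 0.032), against 6.26%. In PBS arrays 7 of these 11 were lower in H1975 at each time and 1 higher at 6 h, against 58.6% and 59.2% of all probes in both directions, among genes of which 0 changed with Pirfenidone in A549. Of 11 immediate early genes 1 changed, the stress-response factor ATF3, which rose in H1975 cells at 24 h by 1.35 (adjusted p = 0.011). Of 5 glucocorticoid response genes 1 changed, TSC22D3, which rose in H1975 cells by 1.0 (adjusted p = 0.049) at 6 h and 0.93 (adjusted p = 0.031) at 24 h. In A549 cells 0 genes of these lists changed at either time. TSC22D3 was just short of the threshold there at 6 h, with a rise of 1.14 (adjusted p = 0.053). ATF3 at 6 h was at 0.91 in A549 (adjusted p = 0.32) and 1.02 in H1975 (adjusted p = 0.091). The 6 h changes differed between the lines by -0.14 for TSC22D3 and 0.11 for ATF3 (H1975 minus A549), and neither difference passed.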

How the data were processed

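Total RNA of 24 samples was labelled with Cy3 and hybridised to Agilent one-colour arrays. Per-spot intensity values, deposited as scanner output, had been extracted and background-subtracted by the authors with Agilent Feature Extraction 11.5.1.1 (hg19 in the file headers). The authors also deposited a table of log2 values, each probe centred on its median over the arrays (column medians -0.162 to 0.155). Differences between arrays in it correlated with those used here with r = 0.9996, and the sources used here do not give how its arrays were scaled.

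The main values were log2 processed signals minus the 75th percentile of each array, with outlier spots left out and spots of a probe averaged. A probe was tested where 1 or more groups had it well above background throughout (3 of 3 arrays), which left 23827 of 34127 probes. One limma fit (limma 3.58.1, R 4.3.3; lmFit and eBayes) covered all 8 groups with 16 residual degrees of freedom, and p-values were adjusted over all tested probes (Benjamini-Hochberg). The study's methods name a moderated test, a 2-fold limit and a Westfall-Young correction, which permutes arrays and cannot reach the threshold with 3 against 3. The precision is limited by the 3 arrays of a group. Run, slide and replicate number were tried as blocks, as fixed terms within a line and, between lines, as random terms (duplicateCorrelation, correlations 0.457, 0.45 and 0.223). Other alternatives were normexp correction, quantile normalization, the authors' values, other filters, Holm adjustment and leaving out arrays.

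Named were all members, the listed genes that passed the test and, for each member that passed with Pirfenidone, the 3 genes most correlated with it. Members and lists were chosen with earlier results of these data known. Cell type markers and 6 gene lists came from textbook knowledge. Probe positions are those of the scanner files, promoters those of RefSeq.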

Additional observations from a re-analysis of the deposited data

Results flagged for a closer look

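The Pirfenidone minus PBS change of KLF7 at 24 h differed between the lines by 1.139 on the log2 scale (H1975 minus A549, limma interaction contrast, adjusted p = 0.046), with all within-run differences of H1975 (0.93 to 1.11) above all those of A549 (-0.32 to 0.003). It was picked out because the test of the difference itself passed. It no longer passed in 16 of 26 alternatives, 9 of them among the 12 fits without 1 array (adjusted p 0.025 to 0.13). The A549 side includes the pair of run 1, in which KLF7 was lower on the PBS array (-2.26) than on any other A549 PBS array, and also lower on the Pirfenidone array (-2.25) than on any other A549 Pirfenidone array.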

How the results depend on the processing

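The 21 single KLF results that passed the test were recomputed under 385 alternatives in all. Direction was kept in all 385, 308 stayed past the threshold and 77 did not. Many settings left the differences as they were, so direction could not change in them. These were Holm adjustment, no fold limit, other filters, only the arrays compared, and replicate number or run as a block. Without the fold limit the adjusted p of a single result was also the same, so it stayed past the threshold by construction. In H1975 cells at 24 h the KLF7 change was lost only under Holm adjustment (adjusted p = 0.17), whereas KLF4, KLF13 and KLF11 were lost under normexp correction (adjusted p = 0.096, 0.096 and 0.17), without a filter on dim probes (0.054, 0.060 and 0.068) and in a fit of only the arrays compared (0.060, 0.070 and 0.10). The line differences of KLF5, KLF11, KLF13 and the NM_001300 probe of KLF6 passed in all. Normexp moved the median of all probes in H1975 at 6 h from 0.05 to 0.29, and KLF11 was at 0.63 there.

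Counts of KLF probes past both limits (adjusted p and 2-fold) changed as follows. For the line difference in the 24 h change the count of 1 became 0 under normexp, quantile normalization, the authors' values, no filter, only the arrays compared, Holm adjustment and without both A549 24 h arrays of run 1, and ranged from 0 to 1 without 1 array. For time in H1975 PBS arrays 1 became 0 under normexp (adjusted p of KLF9 0.054), only the arrays compared (0.099) and Holm (0.19). For Pirfenidone in H1975 at 24 h 0 became 1 with slide as a block and ranged from 0 to 1 without 1 array. Without the fold limit the counts were 1 and 4 for Pirfenidone in H1975 at 6 h and 24 h, and 8 for the line difference at 24 h.

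The replicate block changed none of these counts (0 for Pirfenidone in each comparison, 1 for the line difference in the 24 h change). Deviations of same-numbered arrays correlated from 0.58 to 0.70 in A549 at 6 h, -0.10 to 0.39 in A549 at 24 h, -0.68 to 0.43 in H1975 at 6 h and 0.46 to 0.72 in H1975 at 24 h. Numbers followed run except in H1975 at 6 h, where arrays of 1 run correlated from 0.50 to 0.82. Not every pair passed 0.1, so the number was not taken to pair the arrays. Run was not a term of the main fit either, although arrays of 1 run were alike in H1975 at both times. The main counts are therefore those of an unpaired fit. Signal over background limits the NM_001160124 probe of KLF6 and the 3 untested probes.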
